A study of Homo sapiens with 9 samples.

Results

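Type I interferon response genes are genes switched on when a cell senses an interferon or viral nucleic acid. The 36 described here were a list of gene symbols chosen with earlier results of these data known, and all 36 were among the 21619 genes in each count table. They were grouped as RNA sensors, transcription factors, the IFIT, OAS and IFI families, the ubiquitin-like ISG15 system, membrane proteins and further effectors. A filter on low counts kept 34 of them and 13458 of all genes for testing. RSAD2 and CMPK2 fell below it.

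The genes were measured in human MDA-MB-231 cells, an established triple-negative breast cancer line, grown as tumours in the mammary fat pad of mice for 3 weeks. For 5 tumours, numbered 1, 6, 7, 10 and 15, they were mixed in equal parts with human mesenchymal stem cells (MSC) from bone marrow before injection, and for 4 tumours, numbered 9, 11, 12 and 13, they were injected alone. Cancer cells of both groups carried the ribosomal protein L10a fused to EGFP, and each tumour came from its own mouse. RNA bound to the tagged ribosomes was pulled down from the lysate of the whole tumour with anti-GFP beads, which selects transcripts on ribosomes of the cancer cells but can carry RNA of other cells along. The host strain, its immune cells and the donor of the MSC are not described in the sources used here. Fewer expressing cells and less RNA per cell cannot be told apart in whole tumours, nor can RNA abundance and ribosome association.

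Values are CPM, counts scaled to a common library size, given as mean ± SD where averaged (n = 5 with MSC, n = 4 without), and fold changes are log2 ± SE, with MSC minus without. Per-tumour values are listed in the order of tumours 1, 6, 7, 10 and 15 with MSC and 9, 11, 12 and 13 without. A gene was called when its edgeR quasi-likelihood p, Benjamini-Hochberg adjusted over all 13458 genes, was under 0.05. Counts of genes at an unadjusted p under 0.05 were not set beside the share of all tested genes at that threshold. Gene totals were 29749909 to 50639082 counts with MSC and 24616792 to 65275226 without. Tumour 9 was the deepest library and tumour 12 the shallowest. The line's markers VIM, CD44, EGFR, KRT8 and KRT18 were present in all 9 libraries (summed level 7916 to 13650 CPM with MSC and 7504 to 8772 CPM without), and the hormone receptor genes ESR1 and PGR were at most 0.208 CPM. ERBB2, the gene of the third receptor behind the term triple-negative, was detected in every tumour, at 21.4 to 36.2 CPM with MSC and 17.8 to 25.7 CPM without. VIM made up most of the summed level, and 3 of the 5 line markers were called higher with MSC by edgeR: CD44 (0.61 ± 0.13, adjusted p = 0.00865), EGFR (0.90 ± 0.17, adjusted p = 0.00498) and KRT8 (0.46 ± 0.13, adjusted p = 0.0413). Tumour 15 stood apart for fibroblast and MSC markers, with a sum over 10 genes of 118.3 CPM, against 18.7 to 33.96 CPM in the other tumours with MSC and 13.04 to 22.8 CPM in those without.

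In the type I interferon pathway, secreted interferons bind the receptor chains IFNAR1 and IFNAR2. The kinases JAK1 and TYK2 then phosphorylate STAT proteins, STAT2 among them, which join IRF9 in a complex that binds a DNA element, the interferon-stimulated response element (ISRE), in the promoters of the response genes. Their products sense or degrade viral RNA, block translation or virus entry, and attach the ubiquitin-like protein ISG15 to other proteins. Tumour cells can carry a steady level of these transcripts without an infection.

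The promoters of the members that passed the test are shown because the ISRE is the element through which this pathway acts, and they differ in whether they hold its core. They come from RefSeq (GRCh38.p14) and run 5′ to 3′ on the gene's strand over the 250 bases before the start. Capitals mark the ISRE core, searched as GAAA, any 2 bases, and GAAA again, on both strands, so that it also appears as its reverse complement. OASL has no entry in that table.
IFI44 (chr1:78649539-78649788, plus strand): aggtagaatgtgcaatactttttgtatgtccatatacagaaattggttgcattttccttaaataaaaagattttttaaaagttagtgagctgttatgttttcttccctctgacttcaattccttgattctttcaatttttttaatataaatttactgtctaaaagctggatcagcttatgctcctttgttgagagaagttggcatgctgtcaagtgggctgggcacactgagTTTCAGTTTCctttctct
HERC5 (chr4:88456869-88457118, plus strand): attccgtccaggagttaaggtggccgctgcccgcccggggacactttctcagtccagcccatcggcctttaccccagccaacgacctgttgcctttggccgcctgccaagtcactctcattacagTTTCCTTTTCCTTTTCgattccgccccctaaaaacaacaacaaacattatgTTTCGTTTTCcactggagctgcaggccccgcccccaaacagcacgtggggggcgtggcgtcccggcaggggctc
DDX58 (chr9:32526197-32526446, minus strand): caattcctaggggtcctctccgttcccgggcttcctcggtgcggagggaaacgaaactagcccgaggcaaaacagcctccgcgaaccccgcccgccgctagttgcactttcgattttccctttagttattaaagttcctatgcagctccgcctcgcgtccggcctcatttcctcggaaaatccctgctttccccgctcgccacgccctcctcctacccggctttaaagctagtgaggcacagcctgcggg
DDX60 (chr4:168318753-168319002, minus strand): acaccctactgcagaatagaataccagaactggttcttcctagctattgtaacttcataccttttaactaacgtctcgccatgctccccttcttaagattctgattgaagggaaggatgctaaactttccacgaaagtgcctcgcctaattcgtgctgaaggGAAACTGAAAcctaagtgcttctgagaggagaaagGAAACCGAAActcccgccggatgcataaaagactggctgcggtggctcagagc
IFITM3 (chr11:320861-321110, minus strand): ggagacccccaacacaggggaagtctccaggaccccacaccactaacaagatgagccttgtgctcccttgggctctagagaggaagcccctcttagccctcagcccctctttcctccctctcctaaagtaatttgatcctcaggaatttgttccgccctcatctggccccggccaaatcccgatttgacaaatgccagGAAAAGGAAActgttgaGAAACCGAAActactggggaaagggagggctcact

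The core started 18 bases before the start in IFI44, 88 and 53 bases before it in DDX60, and 52 and 35 bases before it in IFITM3. HERC5 held 3 matches, at 125, 119 and 74 bases, and the first and second of these overlap. The DDX58 window, listed in RefSeq under the newer symbol RIGI, held none. Promoter windows of 300 bases were found for 30 of the 36 members, and 21 of the 30 held the core in at least 1 window, against 1195 of 27305 genes in the table (4.38%). The shorter STAT dimer motif TTCNNNGAA was in 8 of the 30 members (26.7%) and 9.38% of all genes. Among the 28 tested members with a window, the median log2 change was -0.18 in the 20 with a core, 13 of them negative, and -0.41 in the 8 without, 6 of them negative. A match of letters is not a measured binding site.

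Most members had a small negative change in tumours grown with MSC, and 6 passed the test. IFI44, HERC5, OASL, DDX58 and DDX60 fell, and IFITM3, a membrane protein that blocks virus entry, rose. The 5 falls are 14.7% of the 34 tested members, against 3.60% of all tested genes called lower, and the 1 rise is 2.94%, against 4.18% of all genes called higher. In either direction 6 of 34 members were called (17.6%), against 7.78% of all tested genes. The median log2 change over the 34 was -0.20, against 0.01 over all tested genes. Of the members, 25 had a negative change and 9 a positive one, and 28 did not pass the test.

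**Figure D1:**
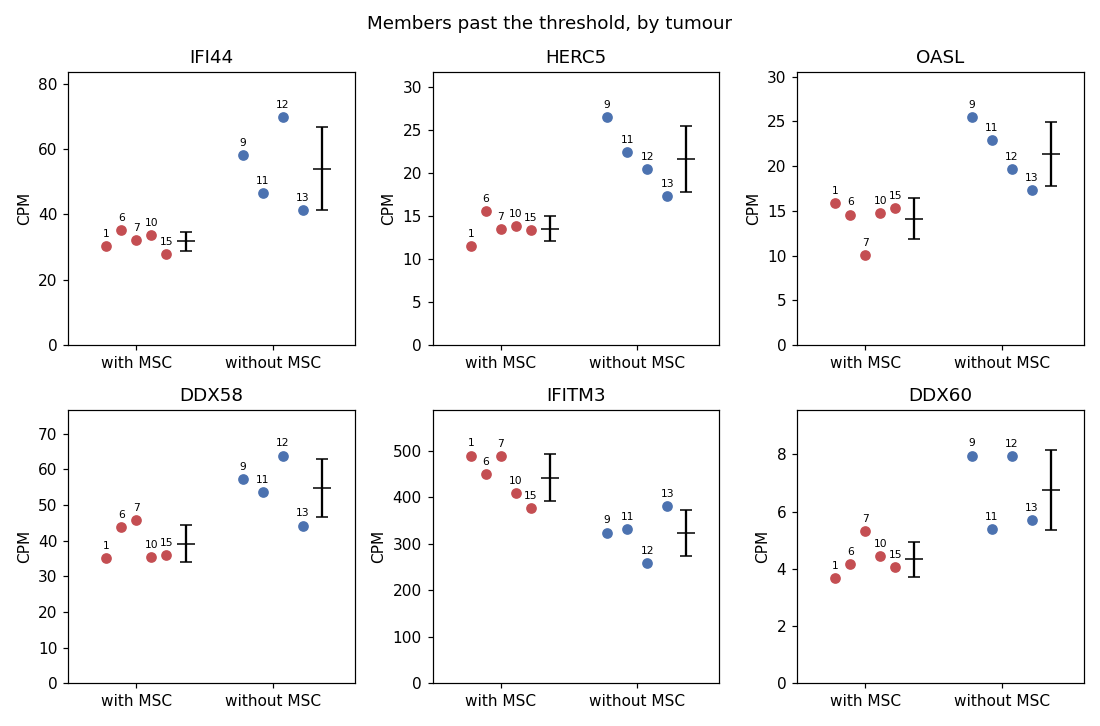
CPM of the 6 members past the threshold in each tumour, with MSC on the left of each panel and without MSC on the right. Points are tumours with their numbers, and bars are the mean and SD of the group (n = 5 with MSC, n = 4 without). The groups do not overlap for IFI44, HERC5, OASL and DDX60, and overlap for DDX58 and IFITM3.

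IFI44, an interferon-induced protein of the cytoplasm, was 30.3, 35.1, 32.2, 33.7 and 27.8 CPM with MSC, against 58.2, 46.5, 69.7 and 41.4 CPM without. Every tumour with MSC was below every tumour without, and tumours 12 and 9 were the highest. The log2 change was -0.76 ± 0.14 (1.69-fold lower with MSC, edgeR adjusted p = 0.00403). Its neighbour on chromosome 1, IFI44L, had 2.32, 2.58, 2.38, 2.78 and 2.65 CPM with MSC, against 6.16, 3.04, 3.47 and 3.05 CPM without. These groups did not overlap either, with tumour 9 well above the rest, and the change of -0.64 ± 0.25 was not called (edgeR adjusted p = 0.121). The other IFI genes overlapped between groups. IFI27, a mitochondrial protein, averaged 79.1 ± 9.29 CPM with MSC and 68.4 ± 8.90 CPM without (0.21 ± 0.11). IFI6, which guards cells against RNA virus replication, averaged 10.9 ± 1.595 CPM with MSC and 9.91 ± 1.91 CPM without (0.14 ± 0.17), and IFI35, a leucine zipper protein, averaged 16.7 ± 1.54 CPM with MSC and 15.5 ± 2.88 CPM without (0.10 ± 0.14). Within the IFI genes, 1 of 5 fell, none rose and the median was 0.10.

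HERC5 is the main ligase that attaches ISG15 to newly made human proteins. It was 11.5, 15.5, 13.4, 13.8 and 13.4 CPM with MSC, against 26.4, 22.4, 20.4 and 17.3 CPM without. The groups did not overlap, and the change was -0.68 ± 0.14 (edgeR adjusted p = 0.00844). HERC6, the adjacent gene on chromosome 4, was 6.67, 5.02, 5.27, 5.08 and 5.71 CPM with MSC, against 8.24, 5.43, 8.93 and 7.64 CPM without. Tumours 12, 9 and 13 were its highest, tumour 11 lay among those with MSC, and the change of -0.45 ± 0.18 was not called (edgeR adjusted p = 0.136). USP18 removes ISG15 from proteins and also dampens receptor signalling. It was 2.03, 2.65, 0.555, 1.87 and 1.77 CPM with MSC, against 3.28, 1.67, 3.14 and 2.80 CPM without, with overlapping groups and tumour 7 the lowest, and its change was -0.63 ± 0.36 (edgeR adjusted p = 0.287). ISG15 itself was 116, 133, 102, 82.7 and 92.8 CPM with MSC, against 71.8, 105, 84.7 and 107 CPM without. Its groups overlapped and its change, 0.19 ± 0.14, had the opposite sign (edgeR adjusted p = 0.415). Of the 4 genes of the ISG15 system 1 fell and none rose.

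The RNA sensors all had negative changes, and 2 of the 3 were called. DDX58, known as RIG-I, detects viral RNA with a triphosphate end. It was 35.1, 43.8, 45.8, 35.5 and 35.98 CPM with MSC, against 57.3, 53.7, 63.9 and 44.2 CPM without. Tumour 13 without MSC lay between tumours 6 and 7 with MSC, and the other tumours without MSC were above all with MSC. The change was -0.48 ± 0.12 (edgeR adjusted p = 0.0242). DDX60, a helicase reported to assist RIG-I-like receptors, was 3.69, 4.16, 5.32, 4.45 and 4.05 CPM with MSC, against 7.95, 5.39, 7.94 and 5.69 CPM without. The groups did not overlap, though tumour 11 without MSC was just above tumour 7 with MSC, and the change was -0.64 ± 0.19 (edgeR adjusted p = 0.0492). IFIH1, the sensor MDA5 for long double-stranded RNA, averaged 2.80 ± 0.725 CPM with MSC and 3.33 ± 1.34 CPM without, and its change of -0.27 ± 0.28 was not called. IFIH1 was highest in tumour 9 at 5.31 CPM.

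Of the 3 transcription factors of the list, 0 passed by edgeR, 1 had an unadjusted p under 0.05, and 0 passed by DESeq2 or limma-voom. STAT2 was 16.4, 19.7, 17.0, 18.8 and 23.2 CPM with MSC, against 20.1, 28.2, 34.7 and 18.4 CPM without. Tumours 11 and 12 were its highest and tumours 9 and 13 lay within the range with MSC, and the change was -0.41 ± 0.17 (edgeR adjusted p = 0.127). IRF9, the DNA-binding partner of the STAT proteins, averaged 25.5 ± 3.07 CPM with MSC and 28.6 ± 6.03 CPM without (-0.16 ± 0.14). IRF7, which drives interferon gene transcription after sensing, averaged 19.8 ± 1.23 CPM with MSC and 19.9 ± 2.99 CPM without (-0.01 ± 0.13), and its highest and lowest tumours, 11 and 9, were both without MSC.

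The OAS genes had changes of both signs. OAS1, OAS2 and OAS3, adjacent on chromosome 12, make a second messenger in response to double-stranded RNA, and OASL is an OAS-like protein that lacks this activity in humans. OASL was 15.8, 14.6, 10.1, 14.8 and 15.3 CPM with MSC, against 25.4, 22.9, 19.6 and 17.3 CPM without. The groups did not overlap, tumour 7 was the lowest of all, and the change was -0.60 ± 0.15 (1.51-fold lower with MSC, edgeR adjusted p = 0.0228). OAS1 was 4.19, 6.13, 5.27, 3.61 and 5.34 CPM with MSC, against 3.33, 3.66, 3.06 and 4.32 CPM without, with overlapping groups and a change of 0.44 ± 0.22 in the other direction (edgeR adjusted p = 0.208). OAS2 averaged 27.2 ± 2.44 CPM with MSC and 29.1 ± 3.98 CPM without (-0.10 ± 0.12). OAS3 averaged 9.29 ± 1.31 CPM with MSC and 8.62 ± 3.02 CPM without (0.10 ± 0.20). Thus 1 of 4 OAS genes fell, none rose, and the median was near 0.

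The IFIT genes encode proteins that bind viral RNA and block its translation, and lie together on chromosome 10. Of the 4, 0 passed by edgeR, DESeq2 or limma-voom, 0 had an unadjusted edgeR p under 0.05, and the median was -0.19. IFIT1 was 21.9, 18.9, 13.4, 21.2 and 15.9 CPM with MSC, against 31.3, 18.4, 14.3 and 21.8 CPM without. Tumour 9 was the highest, while tumour 12 was next to the lowest, so tumours without MSC lay near both ends. IFIT5 was 25.2, 32.3, 31.4, 22.3 and 23.1 CPM with MSC, against 32.8, 33.3, 31.9 and 28.6 CPM without, with a change of -0.24 ± 0.13 (edgeR adjusted p = 0.266), the smallest p of the family, and overlapping groups. IFIT2 averaged 18.7 ± 1.94 CPM with MSC and 18.97 ± 4.46 CPM without (-0.03 ± 0.15), and IFIT3 averaged 34.8 ± 4.41 CPM with MSC and 38.5 ± 7.88 CPM without (-0.15 ± 0.14).

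Of the 3 membrane proteins of the list 1 rose. IFITM3 blocks fusion of viruses in endosomes. It was 489, 449, 488, 409 and 376 CPM with MSC, against 324, 331, 258 and 380.3 CPM without. Tumour 13 without MSC was above tumour 15 with MSC, and the other tumours without MSC were below all with MSC. The change was 0.45 ± 0.12 (edgeR adjusted p = 0.0293). IFITM1, a related protein of the cell surface, was 69.7, 60.5, 80.8, 56.0 and 54.9 CPM with MSC, against 37.6, 34.5, 24.1 and 63.7 CPM without, again with tumour 13 inside the range with MSC, and its change of 0.68 ± 0.22 was not called (edgeR adjusted p = 0.0761). IFITM2, their close copy outside the list, averaged 172 ± 23.8 CPM with MSC and 149 ± 15.2 CPM without (0.20 ± 0.11, edgeR adjusted p = 0.280). Reads can be lost or shared between these 3 similar genes. BST2, or tetherin, which holds budding viruses at the surface, averaged 252 ± 20.9 CPM with MSC and 283 ± 51.5 CPM without (-0.17 ± 0.12).

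Among the remaining 10 members, 8 of them tested, 0 passed by edgeR, DESeq2 or limma-voom, and 1 (SAMD9L) had an unadjusted edgeR p under 0.05. ISG20, an exonuclease that degrades RNA, was 17.8, 18.6, 18.5, 16.4 and 15.3 CPM with MSC, against 19.1, 19.2, 20.6 and 20.8 CPM without. Its groups did not overlap, but the gap was narrow and the change was -0.20 ± 0.12 (edgeR adjusted p = 0.314). SAMD9L, an antiviral protein that restrains cell growth, was 3.27, 3.19, 5.21, 3.51 and 3.17 CPM with MSC, against 5.03, 3.40, 8.15 and 4.61 CPM without, with tumour 12 the highest and tumour 7 second, and its change was -0.52 ± 0.25 (edgeR adjusted p = 0.197). SAMD9, its neighbour on chromosome 7, averaged 11.6 ± 1.38 CPM with MSC and 12.9 ± 1.24 CPM without (-0.15 ± 0.14), and XAF1, a partner of the apoptosis inhibitor XIAP, averaged 3.64 ± 0.423 CPM with MSC and 4.82 ± 1.38 CPM without (-0.40 ± 0.22). PARP9 and the ubiquitin ligase DTX3L form a complex and are transcribed from a shared promoter region. PARP9 was 4.85, 6.6, 7.24, 4.64 and 6.37 CPM with MSC, against 6.73, 7.19, 10.2 and 6.61 CPM without (-0.37 ± 0.19, edgeR adjusted p = 0.248), highest in tumour 12 with overlapping groups, and DTX3L averaged 15.8 ± 2.39 CPM with MSC and 18.1 ± 2.45 CPM without (-0.20 ± 0.14). MX1 and MX2 are GTPases that trap viral particles. MX1 was 4.16, 5.34, 3.93, 2.86 and 5.34 CPM with MSC, against 3.77, 4.67, 2.73 and 5.19 CPM without (0.07 ± 0.24), and MX2 was 1.45, 1.22, 2.59, 1.13 and 1.54 CPM with MSC, against 1.75, 1.47, 3.10 and 2.46 CPM without (-0.46 ± 0.34). Both overlapped between groups, and tumour 12 was the lowest for MX1 and the highest for MX2. Those left untested, RSAD2 (viperin) and the nucleotide kinase CMPK2, overlap on chromosome 2. RSAD2 was 0.922, 0.251, 0.231, 0.0605 and 0.228 CPM with MSC, against 0.137, 0.0654, 0 and 0.115 CPM without, with tumour 1 at 35 counts, and CMPK2 had at most 4 counts in a tumour.

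**Figure D2:**
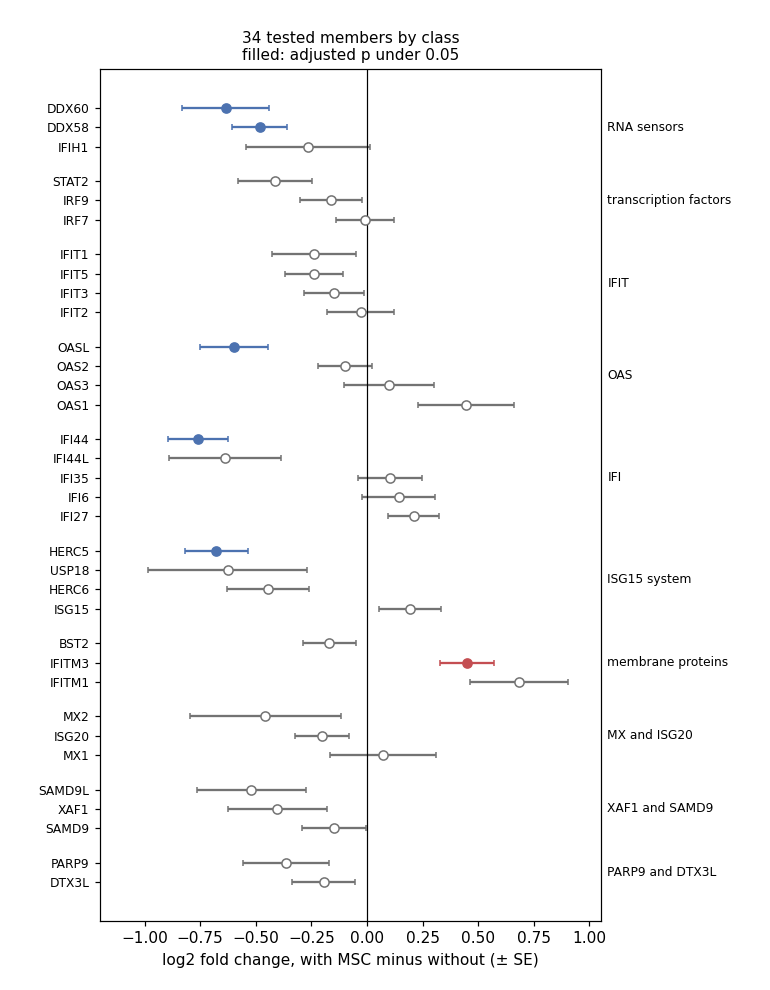
Log2 fold change, with MSC minus without, of the 34 tested members by class, with bars of ± SE from edgeR. Filled points passed an adjusted p of 0.05, blue for lower and red for higher. IFI44 is the lowest at -0.76 and IFITM1 the highest at 0.68, and all members of the sensor, transcription factor, IFIT, XAF1 and SAMD9, and PARP9 and DTX3L classes lie below 0.

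Groups that did not overlap were found for 6 members, all lower with MSC: IFI44, IFI44L, HERC5, OASL, DDX60 and ISG20. They are 17.6% of the tested members, against 4.87% of all tested genes. None was higher in every tumour with MSC, against 5.13% of all genes. The calls differed in how much they rested on single libraries. IFI44 and HERC5 were called in every fit with 1 library left out (edgeR adjusted p at most 0.0244 and 0.0469). OASL lost its call without tumour 9 or tumour 11 (adjusted p = 0.0878 and 0.0561, smallest 0.00744 over the 9 such fits), and DDX58 without tumours 1, 9, 10 or 12 (adjusted p = 0.0733, 0.0707, 0.0646 and 0.103, smallest 0.00539). DDX60 was lost without tumours 1, 6, 9, 10, 12 or 15 (adjusted p = 0.0879 to 0.152, smallest 0.0307), and IFITM3 without tumours 1, 6, 7, 9, 10, 11 or 12 (adjusted p = 0.0512 to 0.151, smallest 0.00854). The count of lower members was 2 without tumour 9, 3 without tumours 1, 10 or 12, and 6 without tumour 13. The share of all genes called lower was 1.02% without tumour 9, 1.44% without tumour 1 or 10, 0.69% without tumour 12 and 6.40% without tumour 13. The count of higher members was 0 without tumours 1, 6, 7, 9, 10, 11 or 12, and 2 without tumour 13. The share of all genes called higher was 1.11% (without tumour 12) to 3.07% (without tumour 7) in the fits with 0. It was 7.31% without tumour 13.

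Levels of the members differed widely. Per kilobase of transcript (CPM per kb, mean of all 9 tumours, with the longest coding transcript of GENCODE 29), IFITM3 was the highest at 482, followed by BST2 at 261, ISG15 at 126, IFI27 at 102 and IFITM1 at 62.6. IFI44 had 24.7, IRF9 14.6, IFIT3 14.6 and DDX58 10.6 CPM per kb. Apart from the untested RSAD2 and CMPK2 (0.0635 and 0.0111), the lowest were IFI44L at 0.538, MX2 at 0.610 and SAMD9L at 0.616 CPM per kb. Of the 5 highest, 4 had a positive change and BST2 had -0.17, and IFI44 was the called fall with the highest level per length.

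**Figure D3:**
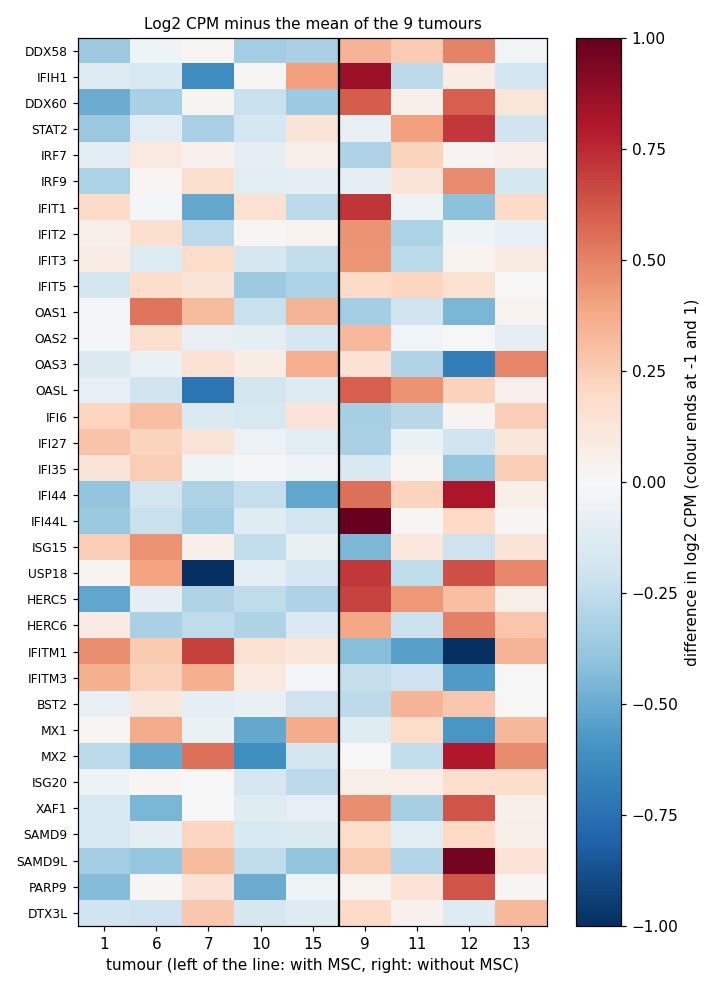
Log2 CPM of each tested member (row) in each tumour (column) minus its mean over the 9 tumours, with MSC left of the line and without MSC right of it. Tumours 9 and 12 hold most of the dark red cells, tumour 9 in IFIH1, IFIT1 and IFI44L and tumour 12 in STAT2, IFI44 and SAMD9L, while tumour 12 is blue for IFITM1, IFITM3 and OAS3.

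The spread of the members was wider among tumours without MSC, which is given with no test. The median SD of log2 CPM over the 34 members was 0.190 with MSC and 0.290 without, while over all tested genes it was 0.199 with MSC and 0.245 without. The SD was larger without MSC for 27 of the 34. Tumour 9 was the highest of the 9 for 10 members: IFIH1, DDX60, IFIT1, IFIT2, IFIT3, OAS2, OASL, IFI44L, USP18 and HERC5. Tumour 12 was the highest for 9 others: DDX58, STAT2, IRF9, IFI44, HERC6, MX2, XAF1, SAMD9L and PARP9. These same 2 tumours were the lowest for 11 members, tumour 9 for IRF7, IFI6, IFI27, ISG15 and BST2, and tumour 12 for OAS1, OAS3, IFI35, IFITM1, IFITM3 and MX1. With MSC, tumour 1 was the lowest for 7 members. These tallies, and the 27 of the 34, were not set beside those of all tested genes. Tumours 9 and 12 were also the deepest and the shallowest library. The mean log2 CPM of the 34 members was 3.79 to 3.96 with MSC and 3.93 to 4.13 without, so the groups overlapped on this average.

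The direction of a member's change went with the GC content and the length of its transcript. Across the 34 members, the log2 change had a Spearman correlation of 0.612 with GC content and -0.456 with length. Across the 11882 tested genes with both values, it was 0.307 with GC content and 0.039 with length. These are correlations across genes in shared libraries, and genes are not independent replicates. Of the 18 members with a GC content below 48.6%, the median of all tested genes, 17 had a negative change (median -0.32), and OAS1 was the exception. Of the 16 at or above it, 8 were negative and 8 positive (median 0.03). Over all genes, 38.6% of those below and 64.3% of those at or above that GC content had a positive change. Among the 7 members with a transcript under 1500 bases (IFI27, ISG15, IFITM3, IFI6, IFITM1, BST2 and IFI35), 6 had a positive change, against 3 of the 27 longer ones. Over all tested genes the shares were 49.1% and 51.7%. The 1500-base split was chosen after the values were seen. All 7 short members also had a GC content above 48.6%, from 52.5% (IFITM1) to 63.4% (ISG15). Length was therefore not separated from GC content in this split.

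**Figure D4:**
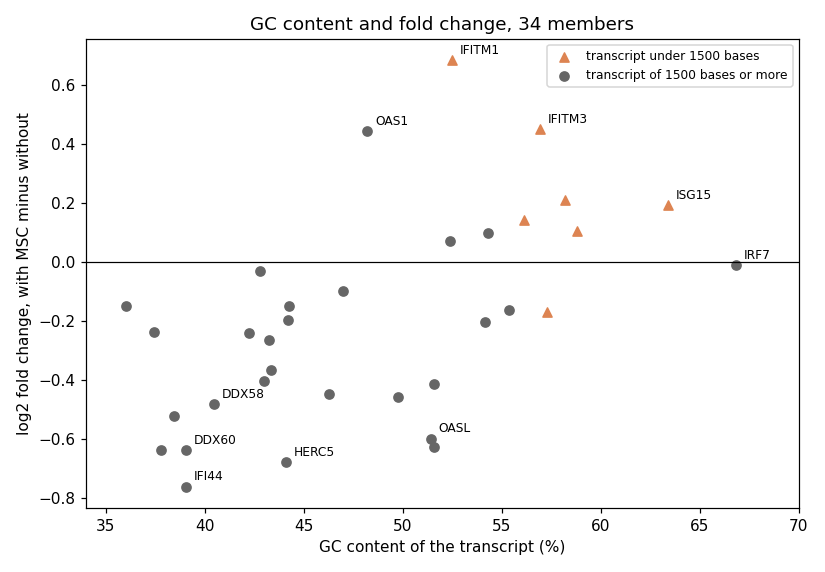
Log2 fold change, with MSC minus without, against the GC content of the transcript for the 34 tested members. Triangles are transcripts under 1500 bases and circles longer ones. Members below 45% GC all lie below 0, and 6 of the 7 triangles lie above it.

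With GC content and length fitted as offsets for each library, 5 members were lower and 1 was higher, the same counts as before. Of all tested genes, 3.88% were then called lower and 2.62% higher, against 3.60% and 4.18% before. The median over the members was -0.23, while that over all genes was -0.05. IFITM3 lost its call (0.33, edgeR adjusted p = 0.0590) and IFITM1 gained one. The changes of ISG15, IFI35, OAS3 and MX1 turned slightly negative. Over the members, the Spearman correlation was then 0.392 with GC content and -0.351 with length. Of the 7 short transcripts 4 were then positive (median 0.03), and of the 27 longer ones 2 were (median -0.28). A true difference that follows GC content would be removed in part by this fit.

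Around the members, the rest of the pathway was examined in lists of 105 related genes, 76 of them tested, of which 2 fell and 2 rose. That is 2.63% in each direction, no more than the 3.60% of all tested genes called lower and the 4.18% called higher. Groups did not overlap for 6 of the 76 with MSC lower and 2 with MSC higher. Over all tested genes these shares were 4.87% and 5.13%. No ligand was measurable: 20 of 21 interferon genes, IFNB1, IFNG and the IFNA genes among them, had 0 counts in all 9 libraries. That allows up to 0.0456 to 0.124 CPM per tumour for counting error only. These are human genes, so the counts do not show whether interferon of the mouse host was present. The remaining ligand, IL29, had 3 counts, all in tumour 15. Of 10 receptors and kinases, JAK1 fell, at 44.0, 48.8, 45.8, 52.7 and 51.9 CPM with MSC, against 66.1, 61.7, 65.5 and 54.7 CPM without (-0.35 ± 0.10, edgeR adjusted p = 0.0451), without overlap between groups. IFNAR1 averaged 32.6 ± 3.10 CPM with MSC and 36.2 ± 5.16 CPM without, IFNAR2 5.11 ± 0.838 CPM with MSC and 5.54 ± 1.94 CPM without and TYK2 58.5 ± 5.45 CPM with MSC and 55.0 ± 4.74 CPM without. IFNAR1, IFNAR2, TYK2, IFITM2, PIAS4, PLSCR1, LAP3, LGALS3BP, SP110 and TRIM5 were named after their values were seen.

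Of 14 tested sensing genes and adaptors, IFI16, a DNA sensor of the nucleus, fell. It was 53.8, 68.7, 77.6, 68.2 and 56.4 CPM with MSC, against 93.1, 90.7, 124 and 83.7 CPM without, with no overlap, tumour 12 the highest and a change of -0.59 ± 0.13 (edgeR adjusted p = 0.0104). The other lists gave 0 calls for negative regulators, ISG15 conjugation and interferon gamma induced genes by edgeR, with 2, 1 and 2 genes at an unadjusted p under 0.05. By DESeq2 the negative regulators had 1 lower (IRF2) and 1 higher (PIAS4), and the other lists of these had 0, as all 3 had by limma-voom. Their smallest p values were those of IRF2 (-0.40 ± 0.12, edgeR adjusted p = 0.0515), a repressor of interferon genes, the conjugating enzyme UBE2L6 (-0.24 ± 0.11, 0.166) and the adhesion receptor ICAM1 (0.43 ± 0.19, 0.159). Among 32 tested further response genes, LY6E, a surface protein, and IFI30, a lysosomal thiol reductase, rose and 0 fell, while 19 of the 32 changes were negative and the median was -0.09. At an unadjusted edgeR p under 0.05, 5 were negative and 4 positive. The counts at an unadjusted p in these lists have no share over all tested genes beside them. Groups did not overlap for 3 of the 32 (SP110, TRIM5 and LAP3), all lower with MSC, against 4.87% of all tested genes. By DESeq2, 2 of this list were lower (PLSCR1 and LAP3) and 3 higher (LY6E, IFI30 and LGALS3BP), and by limma-voom 0 were called. LY6E was 88.8, 112, 81.8, 76.8 and 87.5 CPM with MSC, against 55.3, 66.7, 49.4 and 86.1 CPM without (0.47 ± 0.14, edgeR adjusted p = 0.0493), and IFI30 was 24.4, 26.1, 20.03, 15.8 and 18.7 CPM with MSC, against 13.1, 14.8, 12.1 and 17.7 CPM without (0.54 ± 0.16, edgeR adjusted p = 0.0419). Both overlapped between groups, with tumour 13 inside the range with MSC. Leaving out 1 library ended the calls of JAK1 and LY6E in 8 of 9 fits, all but the one without tumour 13 (edgeR adjusted p up to 0.132 for JAK1 and 0.192 for LY6E). IFI30 lost its call in 7, all but those without tumours 10 and 13 (up to 0.142), and IFI16 only without tumour 12 (0.0579).

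Markers of other cells that could carry interferon response RNA were followed in the same libraries. The counts are of human genes and the host was a mouse, so low or 0 values do not show whether host cells were present. The plasmacytoid dendritic cell genes CLEC4C, IL3RA and LILRA4 had 0 counts in every library. The leukocyte list summed to 139.7 to 209.3 CPM with MSC and 96.1 to 139.3 CPM without, nearly all of it the lysosomal gene CD68. Without CD68 its other 9 genes summed to 4.91 to 9.01 CPM with MSC and 5.87 to 8.24 CPM without, with MS4A1 at 0 throughout. The pan-leukocyte gene PTPRC was at most 3.58 CPM, in tumour 1. Of the 10 leukocyte markers 4 were tested, of which CD68 rose (0.52 ± 0.15, edgeR adjusted p = 0.0371) and none fell. The endothelial list, where ESAM rose and PECAM1 fell, summed to 130.0 to 161.5 CPM with MSC and 92.6 to 111.1 CPM without, and without these 2 genes to 1.17 to 2.40 CPM with MSC and 1.19 to 1.86 CPM without. Of the 10 fibroblast and MSC markers, 5 were tested and 1 rose, COL1A2, a collagen chain. It was 2.63, 1.97, 1.36, 1.21 and 8.45 CPM with MSC, against 0.699, 0.556, 0.538 and 0.528 CPM without (2.41 ± 0.51, edgeR adjusted p = 0.0104). COL1A2 was above every tumour without MSC in all 5 tumours with MSC, and highest in tumour 15. Without tumour 15, 4 members of the interferon list were lower and 1 higher, and the median of the members was -0.18. Of all tested genes, 2.26% were then called lower and 3.24% higher. The part of these cells, or of mouse RNA, in the member values was not tested.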

How the data were processed

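Polysome-associated RNA of 9 tumours was sequenced from TruSeq libraries, per the labels' protocols. The deposited files hold raw counts per gene symbol. Genome build hg19, HTSeq, TopHat 1.4.0 and CASAVA 1.8.1 are named by the submitters' processing notes. Not given in the sources used here are the annotation, HTSeq settings, strand use and any removal of mouse reads. Overlapping genes (RSAD2 and CMPK2, PARP9 and DTX3L) can lose or share reads. So can genes with similar relatives (the IFITM, MX, OAS, IFIT and SAMD9 families and USP18), to a degree that was not tested. The 5 summary lines, 10.2 to 12.1% of counts, were left out. No 2 libraries of a group agreed within sampling noise (chi-square per degree of freedom at least 24.0).

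The members and lists were chosen with earlier results of these data known. Counts were tested with edgeR 4.0.16 in R 4.3.3 (filterByExpr, TMM, glmQLFit with robust=TRUE, Benjamini-Hochberg adjustment). CPM used TMM-scaled library sizes, and log2 CPM a prior count of 2. SE was the log2 change over the square root of F. Transcript length and GC content came from GENCODE 29, matched by symbol to 88.3% of tested genes. Promoters came from RefSeq (GRCh38.p14), and coordinates of the counts' own build were not used. Named with full statistics were called members, the member of smallest p in each class, called related genes and, in lists with none, the gene of smallest p. Other genes were named after their values were seen.

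On simulated counts for this comparison with 13269 genes, 32 of 66 genes with a simulated 1.5-fold change passed, as did 55 of 67 at 2-fold, 60 of 65 at 4-fold, and 8 of 13071 left unchanged. In that simulation 200 genes were set to change, against 1047 called in the data. The adjusted p depends on that share, so these rates need not hold for the data. Alternatives tried were a filter of 5 CPM in 4 libraries or none, scaling by library size alone, by upper quartiles or by DESeq2 size factors, limma-voom (limma 3.58.1) with quality weights, DESeq2 1.42.0, robust=FALSE, a GC content and length correction with 4-degree splines, an adjusted p threshold of 0.10, and leaving out libraries. The labels name no batch.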

Additional observations from a re-analysis of the deposited data

Results flagged for a closer look

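Of 72 groups of tumours, the 36 members in each condition, 9 held a tumour far from the others by Dixon's criterion, which chance alone gives for about 1 group in 20. In 5 of them the tumour was number 7 with MSC: OASL was low at 10.1 CPM (the next was 14.6), while MX2 (2.59 CPM, the next 1.54), SAMD9 (14.1 CPM, the next 11.3), SAMD9L (5.21 CPM, the next 3.51) and DTX3L (20.1 CPM, the next 15.2) were high. RSAD2 was high in tumour 1 with MSC at 0.922 CPM, where the next was 0.251. Without MSC, IFI44L was high in tumour 9 at 6.16 CPM, where the next was 3.47, and PARP9 was high in tumour 12 at 10.2 CPM, where the next was 7.19. CMPK2 had counts only in tumour 9 among those without MSC, at 0.0304 CPM, under the limit that 0 counts allow.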

How the results depend on the processing

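No paired analysis was possible because the groups share no replicate numbers. The median of the members, -0.20, was -0.23 to -0.16 in the alternatives that refit it. These shifts between settings were smaller than the pooled SD of the tumours' own member medians, 0.0839 on the log2 scale. The count of lower members was 5, and 4 or 5 in the other normalizations, filters and tests. It was 2 to 6 without 1 library and 3 without tumours 15 and 12 together. The share of all tested genes called lower was 2.15% (limma-voom) to 5.87% (DESeq2) in those normalizations, filters and tests. That share was 0.69% to 6.40% without 1 library and 0.747% without tumours 15 and 12 together. The count of higher members was 1. It was 2 with limma-voom, with robust=FALSE and at an adjusted p under 0.10, 0 to 2 without 1 library, and 0 without tumours 15 and 12 together. The share of all tested genes called higher was 2.99% with limma-voom, 4.02% with robust=FALSE and 7.1% at an adjusted p under 0.10. That share was 1.11% to 7.31% without 1 library and 1.49% without tumours 15 and 12 together. Related genes numbered 2 lower and 2 higher. Scaled by library size alone, and by limma-voom, they were 1 and 0, with DESeq2 6 and 4, at an adjusted p under 0.10 7 and 4, and without tumours 15 and 12 together 1 and 0. The lower count was 1 with no filter, and the higher count was 1 with DESeq2 size factors or robust=FALSE, 4 with the 5 CPM filter and 0 after the GC correction. Without 1 library, they were 0 to 3 and 0 to 4. Of all tested genes, DESeq2 called 5.87% lower and 6.36% higher, and the adjusted p under 0.10 gave 6.6% and 7.1%. With the 5 CPM filter these shares were 5.81% and 6.6%.

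Calls of IFI44 and HERC5 held in all 19 alternatives, OASL in 17, DDX58 in 14, IFITM3 in 10 and DDX60 in 7. DDX60 also missed the threshold with no filter, robust=FALSE, limma-voom and scaling by library size or upper quartiles (adjusted p 0.0511 to 0.0753). DDX58, DDX60 and IFITM3 were lost without tumours 15 and 12 together. The cause was not tested. Some uncalled members changed sign. The GC correction gave IFIT2 0.017, OAS3 -0.083, IFI35 -0.028, ISG15 -0.0455 and MX1 -0.011. Limma-voom gave IFIT2 0.021 and MX1 -0.12, and leaving out tumours 15 and 12 together gave OAS3 -0.15 and MX1 -0.17. Over the fits without 1 library the range was IRF7 -0.11 to 0.073, MX1 -0.078 to 0.21, IFIT2 -0.12 to 0.15, IFIH1 -0.41 to 0.065, IFIT1 -0.39 to 0.0033, OAS2 -0.15 to 0.0032 and OAS3 -0.068 to 0.32. In the simulation, changes of 1.5-fold were often missed, though fewer genes were set to change there than were called in the data. USP18 and MX2 had the fewest counts of the tested members, 795 and 653 over all libraries. IFI44L had 72 to 405 counts in a tumour.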
